A study of Mus musculus with 40 samples.

Results

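The transcripts of the mouse aorta were compared between control mice and mice without smooth muscle calcineurin 2 h after angiotensin II (Ang-II) infusion began. The comparison took all libraries labelled Cn-Ctl Ang-II 2h against all libraries labelled SM-Cn-/- Ang-II 2h, over every gene of the expression table. These were 3 libraries a group, 6 of the 22 libraries of the genotype experiment and 6 of the 40 libraries of the series. The remaining libraries were the same genotypes untreated or after 6 h or 24 h of Ang-II, and a second experiment in wild-type mice given the calcineurin inhibitor cyclosporin A (CsA).

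Both groups were male mice in which both copies of the gene for the calcineurin regulatory subunit CnB1 (Ppp3r1) were flanked by loxP sites. Cn-Ctl mice were CnB1-flox;Myh11-CreERT2-neg and SM-Cn-/- mice were CnB1-flox;Myh11-CreERT2-pos, so the tamoxifen-activated recombinase was present in the knockout group and absent from the control group. The study's methods also list mice with unfloxed CnB1 and the recombinase among controls, which the labels of these libraries do not name. All mice of the genotype experiment received tamoxifen, 1 mg daily on 5 days. Osmotic minipumps delivering Ang-II at 1 µg/kg/min were implanted 6 weeks later. The Myh11 promoter is used to direct recombination to smooth muscle, and how far calcineurin was lost in each cell type of these aortas was not measured here. The effect of the recombinase itself and that of the loss of CnB1 cannot be told apart in this design. Treated Cn-Ctl mice entered the study where their systolic pressure passed 130 mmHg, whereas SM-Cn-/- mice treated in parallel entered without that criterion. According to the methods, pressure did not rise after Ang-II in any of these SM-Cn-/- mice. Genotype, the pressure itself and selection by pressure therefore cannot be told apart either. Each library was a pool of 3 aortas stripped of adventitia and perivascular tissue. The p-values measure the spread between these pools.

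Calcineurin is a calcium- and calmodulin-dependent phosphatase made of a catalytic A subunit and the regulatory B subunit. Its best-known substrates are the NFAT transcription factors, which enter the nucleus once dephosphorylated, and Rcan1 is a feedback inhibitor that NFAT induces. Ang-II acts on its AT1 receptor in smooth muscle cells, where it raises calcium and switches on immediate early genes such as the AP-1 factors Fos and Jun before later genes of matrix and cytoskeleton. Heat shock proteins are chaperones whose genes are switched on by the factor HSF1 when proteins misfold, and they are also known to be induced in the arterial wall by acute hypertension.

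The 6 libraries held 5801216 to 7449677 assigned reads. Values are given as the authors' normalised signal, which is close to CPM, the read count scaled to library size, in the order of replicates 1, 2 and 3. Differences are Cn-Ctl minus SM-Cn-/- on the scale log2(signal + 0.5), tested with limma on all 22 libraries of the experiment, and a gene was called at an adjusted p under 0.05 (Benjamini-Hochberg over 17402 genes). Replicate 3 stood apart in both groups. Replicates 1 and 2 correlated at 0.9644 in Cn-Ctl and 0.9751 in SM-Cn-/- (Pearson's r of log2 values across genes), and replicate 3 of Cn-Ctl correlated at 0.9335 and 0.9544 with the others of its group, below its 0.9553 with SM-Cn-/- replicate 1. Replicate 3 of SM-Cn-/- correlated at 0.9407 and 0.9485 with its group. The count of all calls, and each list count that moved, is therefore also given without both replicates 3, an alternative chosen after seeing the data.

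The gene-level signal did not show the deletion. Ppp3r1 (CnB1, GRCm38 chromosome 11, 17159263 to 17200375, plus strand) read 84.8, 86.4 and 134 in Cn-Ctl and 118, 93.5 and 70.1 in SM-Cn-/-. The groups overlapped, and the difference was 0.12 ± 0.32 (SE, n = 3 and 3; limma adjusted p = 0.93). A signal summed over a whole gene can hold reads of exons outside the loxP sites, and reads per exon were not used here. The catalytic subunits gave log2 differences of 0.12 for Ppp3ca, -0.32 for Ppp3cb and 0.19 for Ppp3cc, and none passed the test.

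Rcan1, the calcineurin inhibitor that NFAT is known to induce, separated the groups widely. It read 368, 404 and 380 in Cn-Ctl and 46.6, 31.7 and 55.3 in SM-Cn-/-, every control pool above every knockout pool. The difference was 3.13 ± 0.32 (SE), 8.75-fold, with a limma adjusted p of 3.6e-06. Untreated aortas of the same genotypes had group means of 36.5 and 34.9, a difference of 0.02. The Rcan1 signal is that of the whole gene, and NFAT activity was not measured here. Nfat5, the tonicity-responsive member of the family, was higher in Cn-Ctl by 0.66 (limma adjusted p = 0.013), a call lost in 5 of the alternative settings. The other 9 measured members of the list of regulators and NFAT factors did not pass the test, among them Nfatc1 with a difference of 0.40 and Nfatc3 with 0.16.

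Across the genome, 518 of 17402 genes were called, which is 2.98% of those tested. Of these, 430 were higher in Cn-Ctl (2.47% of genes tested) and 88 were lower (0.506%), so that 83.0% of the calls were higher in the controls. After quantile normalisation of the libraries the calls were 311, 222 higher and 89 lower, a share of 71.4% higher. Without both replicates 3 there were 681 calls, 589 higher and 92 lower, and 394 of the 518 genes were among them. Leaving out replicate 1 or 2 of SM-Cn-/- gave 315 and 256 calls, and leaving out replicate 1 or 2 of Cn-Ctl gave 268 and 280. Of the 430 genes, 265 differed by more than 2-fold and 69 by more than 4-fold, against 58 and 8 of the 88. The median difference was 1.17 for the 430 and -1.11 for the 88, and 0.009 for all genes. The pools of the groups did not overlap for 421 of the 430 and for all 88 genes, where 11.5% of all genes were separated in the higher and 9.69% in the lower direction. Summed over genes, the signal of a library was 1105200 to 1179360 in Cn-Ctl and 938859 to 1027240 in SM-Cn-/-, so the totals of the scaled values differed between the groups too, and their part in the counts was not tested beyond the alternative scalings.

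**Figure D1:**
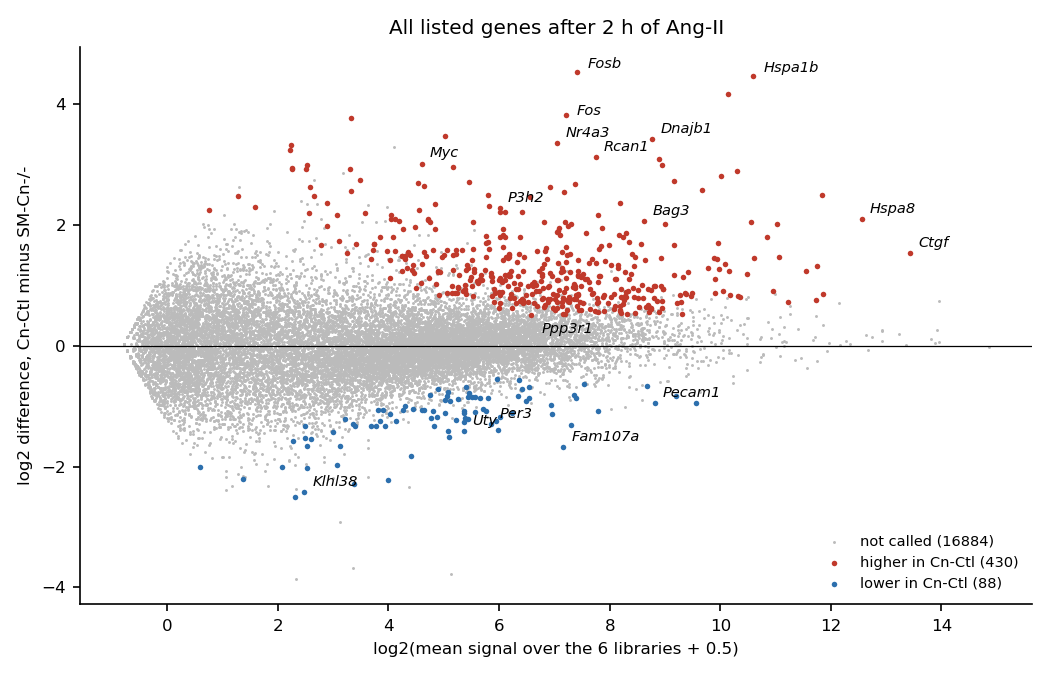
Each dot is a gene, with the log2 of its mean signal over the 6 libraries plus 0.5 on the horizontal axis and its log2 difference, Cn-Ctl minus SM-Cn-/- at 2 h, on the vertical axis. Red dots are the 430 genes called higher in Cn-Ctl, blue dots the 88 called lower, and grey dots the 16884 genes not called. The red cloud reaches further from 0 than the blue, with 69 against 8 genes beyond 4-fold.

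Immediate early factors, heat shock genes and Rcan1 were among the 10 protein-coding genes with the largest differences. Fosb, an AP-1 subunit, read 293, 449 and 236 in Cn-Ctl and 11.7, 13.3 and 14.5 in SM-Cn-/-, a difference of 4.53 ± 0.48 (SE), 23.2-fold, with a limma adjusted p of 4.2e-06. Hspa1b, an inducible cytosolic Hsp70, read 3268, 3295 and 2310 against 167, 71.7 and 188, a 22.2-fold difference (4.47 ± 0.42). Its near-identical copy Hspa1a read 2260, 2508 and 1608 against 136, 61.8 and 185, an 18-fold difference (4.17 ± 0.47). Reads of these neighbouring copies on chromosome 17 can be assigned to either, so the pair is best read as a unit. Gm20481, annotated as protein-coding on the other strand over Hspa1a, read 14.5, 19.6 and 20.7 against 0.942, 0.743 and 0.889 (3.78), and its reads cannot be told apart from those of Hspa1a. Fos read 99.2, 428 and 312 against 19.2, 15.9 and 13.8, a 14.3-fold difference, with the lowest control pool still above every knockout pool. Arc, an immediate early gene known from neurons, read 58.7, 68.6 and 48.0 against 3.12, 3.31 and 9.94, an 11.1-fold difference. Nr4a3, an orphan nuclear receptor, read 262, 288 and 175 against 25.9, 29.1 and 15.4, a 10.2-fold difference.

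The starts are shown of the 6 genes with the largest differences, among the 10 of 15 with a RefSeq window, whose window held at least 1 of the motifs searched, so a match was a condition for being shown. The motifs were those of factors that are themselves called or act in these pathways. Each sequence is the RefSeq window on GRCm38.p6 from 250 bases before to 50 bases after the annotated start, 5′ to 3′ on the strand of the gene. Capitals mark matches, on either strand, to the motifs of AP-1 (TGACTCA), CRE (TGACGTCA), EGR (GCGGGGGCG or GCGTGGGCG), heat shock factor (GAANNTTC), SMAD (CAGACA), NFAT (TGGAAA), NF-kB and CArG. The windows are Fosb chr7:19309996-19310295 (minus strand), Hspa1b chr17:34959189-34959488 (minus), Hspa1a chr17:34972107-34972406 (minus), Fos chr12:85473640-85473939 (plus), Nr4a3 chr4:48045055-48045354 (plus) and Rcan1 chr16:92400029-92400328 (minus, 1 of 2 annotated starts).
Fosb: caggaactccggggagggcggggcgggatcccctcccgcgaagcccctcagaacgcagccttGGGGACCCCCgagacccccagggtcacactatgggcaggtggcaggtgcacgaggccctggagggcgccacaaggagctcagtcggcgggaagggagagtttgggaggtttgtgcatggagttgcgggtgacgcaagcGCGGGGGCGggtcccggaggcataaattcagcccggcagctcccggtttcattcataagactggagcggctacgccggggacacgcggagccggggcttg
Hspa1b: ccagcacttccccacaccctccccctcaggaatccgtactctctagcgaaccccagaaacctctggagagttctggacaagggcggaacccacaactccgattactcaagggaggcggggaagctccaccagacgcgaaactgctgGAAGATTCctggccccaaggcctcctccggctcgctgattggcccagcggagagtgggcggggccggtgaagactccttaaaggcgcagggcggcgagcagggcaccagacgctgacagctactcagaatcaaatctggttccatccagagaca
Hspa1a: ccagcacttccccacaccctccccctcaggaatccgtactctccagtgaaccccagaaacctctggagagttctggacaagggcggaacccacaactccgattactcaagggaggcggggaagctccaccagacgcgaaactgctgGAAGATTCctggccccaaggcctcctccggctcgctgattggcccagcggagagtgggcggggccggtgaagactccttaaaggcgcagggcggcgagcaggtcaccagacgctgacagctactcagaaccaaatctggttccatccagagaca
Fos: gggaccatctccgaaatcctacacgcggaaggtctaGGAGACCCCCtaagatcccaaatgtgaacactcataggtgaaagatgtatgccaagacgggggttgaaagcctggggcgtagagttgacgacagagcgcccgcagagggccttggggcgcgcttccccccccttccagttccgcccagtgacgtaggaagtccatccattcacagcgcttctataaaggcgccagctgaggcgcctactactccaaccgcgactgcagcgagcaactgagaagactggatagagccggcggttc
Nr4a3: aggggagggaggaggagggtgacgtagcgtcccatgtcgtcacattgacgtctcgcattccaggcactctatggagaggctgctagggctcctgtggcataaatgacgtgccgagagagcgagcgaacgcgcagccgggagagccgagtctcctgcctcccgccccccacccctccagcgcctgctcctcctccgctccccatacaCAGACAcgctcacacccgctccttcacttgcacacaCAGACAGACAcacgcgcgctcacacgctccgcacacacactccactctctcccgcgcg
Rcan1: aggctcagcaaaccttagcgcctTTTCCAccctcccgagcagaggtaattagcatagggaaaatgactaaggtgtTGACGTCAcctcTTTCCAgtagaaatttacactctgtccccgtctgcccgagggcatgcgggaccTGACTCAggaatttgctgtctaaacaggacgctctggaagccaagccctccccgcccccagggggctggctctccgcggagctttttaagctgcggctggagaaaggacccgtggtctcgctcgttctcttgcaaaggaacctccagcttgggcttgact
In these letters the Fosb window held an EGR and an NF-kB match, and the Fos window an NF-kB match. Both Hsp70 windows held the heat shock element at the same distance from the start. The Rcan1 window held a CRE, an AP-1 and 2 NFAT matches, and the Nr4a3 window 3 SMAD matches, of which the last pair overlap. Of all 32851 RefSeq windows, 3.47% held the EGR motif, 4.51% NF-kB, 7.86% the heat shock element, 1.79% the CRE, 5.20% AP-1, 21% SMAD and 21.4% NFAT. A match describes letters and is not a bound site.

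The AP-1 factors were higher as a group in Cn-Ctl. Of 11 measured, 9 were called higher and 0 lower, with a median of 1.87, where 2.47% of all genes were called higher. Without both replicates 3 the count was again 9, but it was 7 after quantile normalisation and 6 to 9 when 1 library at a time was left out. Fosb and Fos are given above. Atf3, a stress-inducible factor that pairs with Jun, read 604, 960 and 1072 against 124, 71.8 and 136, a difference of 3.00 ± 0.28 (limma adjusted p = 1.1e-06). Jun read 222, 367 and 314 against 75.3, 74.4 and 91.2, a 3.67-fold difference. Junb read 7.08, 15.7 and 5.28 against 1.67, 1.96 and 0.889 (2.19). Fosl2, Maff and Fosl1 differed by 1.29, 1.39 and 2.92, and Fosl1 lost its call in 9 alternative settings. Jund was called at 1.37 although its groups overlapped, at 440, 292 and 139 against 84.6, 85.4 and 143. Jdp2 and Mafk were not called, with differences of 0.10 and 0.60.

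Among the zinc-finger, nuclear receptor and other immediate early genes, 11 of 18 were called higher and 0 lower, with a median of 1.57, and 11 were called without both replicates 3. The count was 7 after quantile normalisation or without SM-Cn-/- replicate 2, and 6 without Cn-Ctl replicate 2. Egr1, which binds GC-rich early promoters, read 173, 571 and 388 against 104, 75.2 and 84.8 (1.95, limma adjusted p = 0.0045), and its call was lost without Cn-Ctl replicate 2. Nr4a1 read 144, 318 and 192 against 51.7, 45.7 and 62.6 (1.95), and Nr4a2 read 25.6, 68.0 and 33.9 against 8.48, 10.3 and 7.35 (2.11). Ier5, an immediate early regulator of HSF1, read 97.0, 140 and 102 against 28.0, 15.9 and 29.8, a 4.63-fold difference. For each of these genes all 3 control pools lay above all 3 knockout pools. Csrnp1 differed by 1.61, Ier3 by 1.15, Btg2 by 1.11 and Zfp36, which destabilises cytokine mRNAs, by 0.92. Of 11 Krüppel-like factors, 3 were called higher. Klf4, which restrains the contractile programme of smooth muscle, read 156, 203 and 152 against 55.4, 70.0 and 61.3 (1.44), Klf6 differed by 1.30 and Klf2 by 1.09, while the median of the 11 was 0.22.

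**Figure D2:**
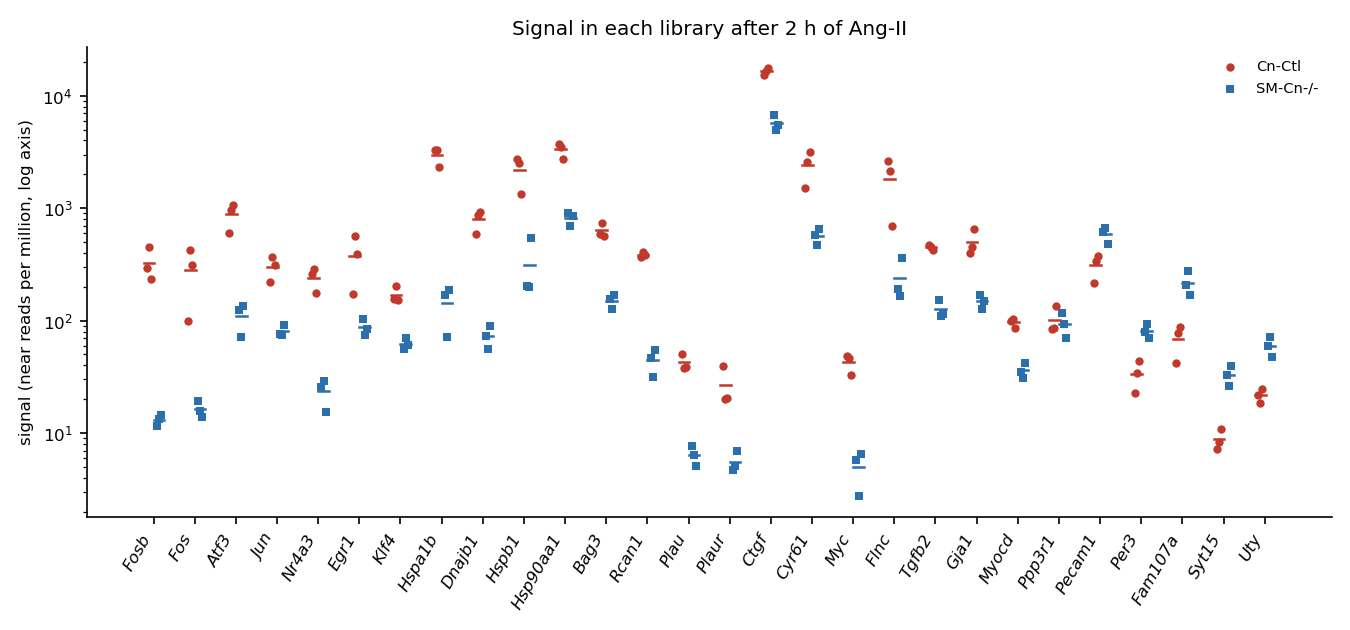
Signal in each of the 6 libraries for 28 genes, on a log axis, with circles for the 3 Cn-Ctl pools, squares for the 3 SM-Cn-/- pools and bars for the group means. For Fosb, Hspa1b, Fos and Rcan1 the circles sit well above the squares, and for Ppp3r1 they mix.

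Heat shock proteins and their cochaperones formed the list with the highest share of calls. Of 25 measured genes, 21 were called higher in Cn-Ctl, 0 lower, and the median was 1.64, with all 25 differences above 0. The count was 21 without both replicates 3, 17 after quantile normalisation and 16 to 20 when 1 library at a time was left out. The Hsp40 cochaperone Dnajb1 read 595, 867 and 931 against 73.5, 56.4 and 90.3, a 10.8-fold difference (3.43 ± 0.33, limma adjusted p = 1.1e-06). Bag3, the Hsp70 exchange factor of chaperone-assisted autophagy in muscle, read 591, 742 and 570 against 154, 128 and 170 (4.19-fold). For both genes every control pool lay far above every knockout pool. The small heat shock proteins Hspb1 and Cryab read 2724, 2538 and 1339 against 203, 199 and 544, and 1289, 1115 and 582 against 122, 122 and 192. For both, the replicates 3 of the groups lay nearest each other. Hsph1, an Hsp110, read 1315, 1553 and 1297 against 285, 165 and 260 (2.58). The constitutive Hspa8 read 9539, 11236 and 8490 against 2701, 1908 and 2259 (2.10), and Hsp90aa1 read 3743, 3507 and 2750 against 912, 693 and 859 (2.02). The mitochondrial pair Hspd1 and Hspe1, which fold imported proteins, differed by 1.52 and 1.89. Hsp90ab1 differed by 0.92, Hspb8 by 0.54 and Ahsa1 by 0.62. Hsf1 and Hsf2, the factors themselves, were not called, with differences of 0.34 and 0.40, nor were Hspa4 (0.42) and Fkbp4 (0.61). Dnaja4, a further Hsp40 outside the list that was singled out after its values were seen, read 200, 212 and 210 against 41.2, 25.1 and 35.1 (2.63, limma adjusted p = 5.5e-08).

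Fibrinolysis and the pericellular matrix were the next groups with several calls. Plau (urokinase, an activator of plasminogen) read 50.7, 38.2 and 39.0 against 7.61, 6.42 and 5.09 (2.65, limma adjusted p = 2.0e-04), its receptor Plaur differed by 2.11, and Plat (tissue activator) read 80.3, 71.5 and 162 against 30.9, 38.3 and 35.5 (1.48). Annexin A2 (Anxa2), a plasminogen docking protein, differed by 0.84. In all, 5 of the 14 genes of this list were called higher and 0 lower, with a median of 0.29, and without both replicates 3 the count was 4.

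Among genes of hyaluronan, ADAMTS proteases and matricellular proteins 12 of 31 were called higher and 0 lower, with a median of 1.00, but 7 were called without both replicates 3 and 7 after quantile normalisation. Tnfaip6 (TSG-6, a hyaluronan-binding protein) read 103, 92.6 and 85.2 against 21.1, 10.2 and 19.3 (2.50), and the hyaluronan receptor Cd44 read 250, 196 and 188 against 64.3, 50.2 and 54.2 (1.90). The hyaluronan synthase Has1 was low, at 2.49, 16.9 and 9.88 against 0.217, 0.878 and 0.727 (2.93). Cyr61 read 1523, 2593 and 3187 against 574, 474 and 652 (2.05). Its relative Ctgf, a target of mechanical signalling, read 15346, 16475 and 17504 against 6714, 4939 and 5515 (1.53), a call lost in 5 alternative settings, as was that of Thbs1 (1.61). Lox, which cross-links collagen and elastin, read 939, 771 and 911 against 347, 245 and 238 (1.67). Adamts1 differed by 1.35, Postn by 1.32 and Tnc by 1.32. Of 21 structural matrix genes 4 were called higher, led by Col15a1 at 540, 539 and 662 against 208, 211 and 228 (1.42), and the median was 0.48, which was -0.01 after quantile normalisation.

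In the TGF-beta, BMP and activin list 6 of 32 genes were called higher and 0 lower, with a median of 0.32. The ligands led. Tgfb2 read 472, 453 and 424 against 153, 111 and 115, a 3.59-fold difference (limma adjusted p = 1.1e-06), Bmp2 read 28.2, 28.8 and 29.6 against 8.04, 4.8 and 7.19 (2.06), Tgfb3 differed by 1.06 and Inhba, the activin A subunit, by 0.99. The receptor Tgfbr1 and the membrane protein Pmepa1 differed by 0.83 and 0.80. Smad2, Smad3 and Smad7 were not called, with differences of 0.06, -0.17 and 0.47. After quantile normalisation 3 of the 32 were called.

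Cytoskeletal genes were taken in 2 lists, the general actin machinery and the contractile proteins of differentiated smooth muscle. Of 41 actin-regulator and focal adhesion genes, 16 were called higher and 0 lower, with a median of 0.56. Without both replicates 3 the count was 15, but after quantile normalisation it was 7 higher and 1 lower, and it was 9 and 7 without replicate 1 or 2 of SM-Cn-/- and 8 without replicate 1 or 2 of Cn-Ctl. Flnc, a muscle filamin and Bag3 client, read 2643, 2129 and 701 against 189, 165 and 357 (2.82, limma adjusted p = 1.7e-04). Xirp1, an actin-binding repeat protein of injured muscle, read 1046, 983 and 516 against 87.6, 59.6 and 159 (3.10). The fibronectin receptor chain Itga5 read 3530, 3207 and 1796 against 690, 610 and 1142 (1.80). In each of these 3 genes replicate 3 of Cn-Ctl was the lowest control and replicate 3 of SM-Cn-/- the highest knockout, and the groups did not overlap. Enah differed by 1.44, Palld by 1.37, Rnd3 by 1.56 and the cytoplasmic actins Actb and Actg1 by 0.86 and 0.72. The last pair lost their calls after quantile normalisation.

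Of 18 smooth muscle contractile genes, 2 were called. Myocd, the master coactivator of that programme, read 100, 104 and 85.8 against 35.1, 30.7 and 42.3 (1.42, limma adjusted p = 0.046) and Cnn1 read 2063, 1728 and 1228 against 846, 803 and 1182 (0.82, limma adjusted p = 0.046). Both sat at the threshold and lost their calls in 8 and 6 alternative settings. Acta2 differed by 0.27, Tagln by 0.15 and Myh11 by 0.03, none of them called, and the list's median was 0.15. Of 29 calcium channel, store and pump genes and of 10 renin-angiotensin genes 0 were called at an adjusted p under 0.05, with medians of -0.04 and -0.10, and after quantile normalisation 1 gene of each list was called lower. The difference nearest the threshold in the latter was Lnpep, 2.24-fold higher in Cn-Ctl (limma adjusted p = 0.06).

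**Figure D3:**
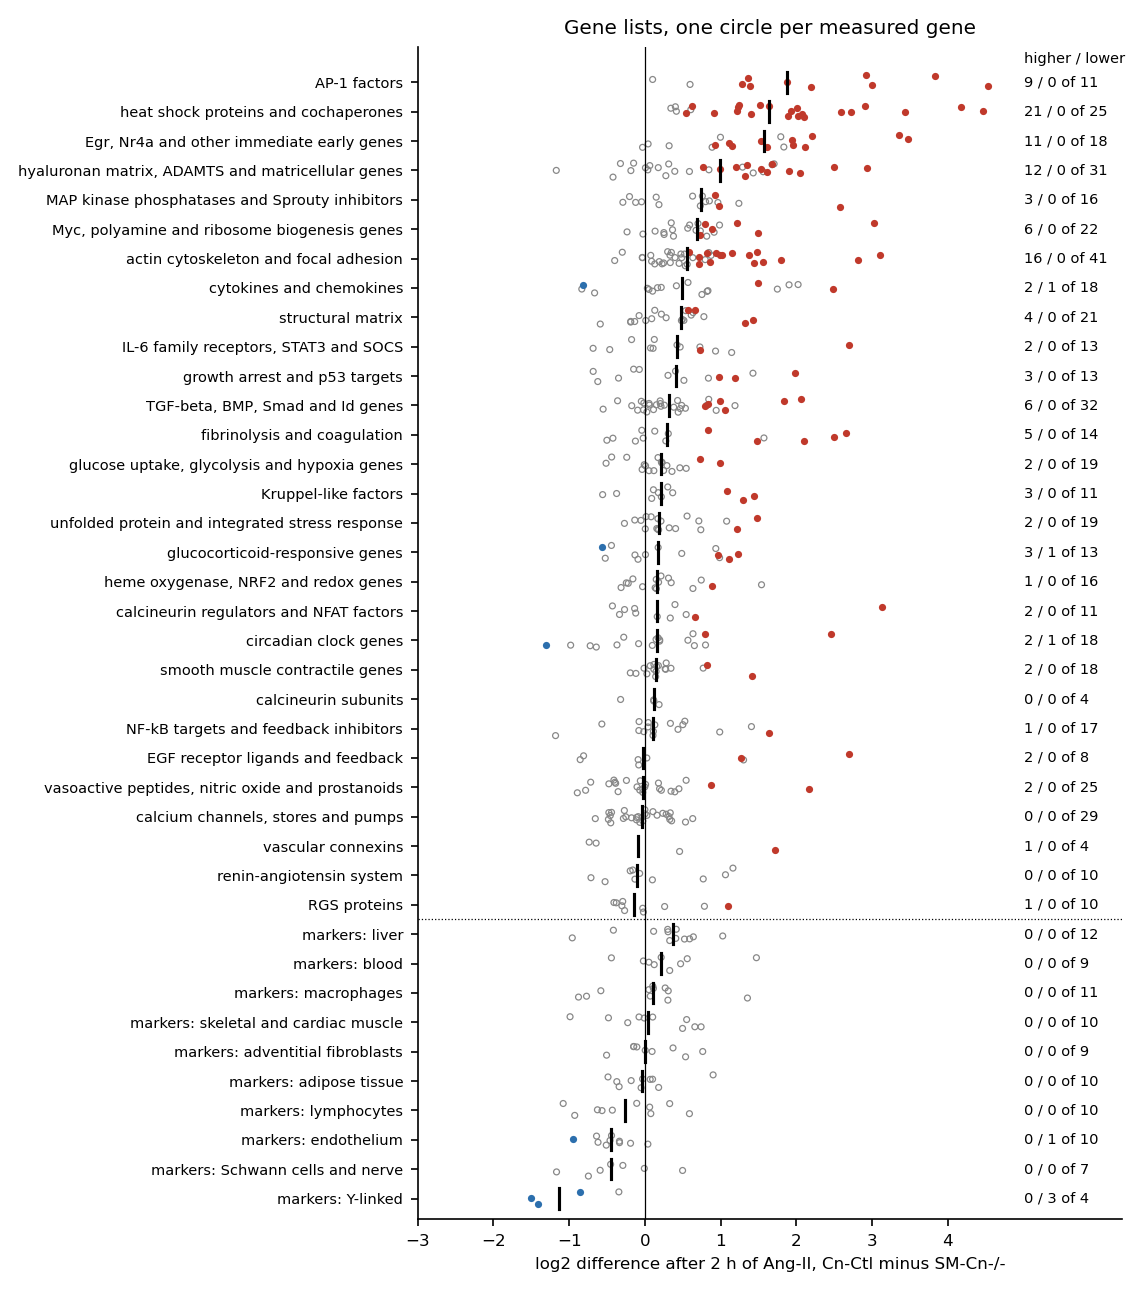
Each circle is a measured gene of a list, placed by its log2 difference at 2 h, Cn-Ctl minus SM-Cn-/-, filled where called. The black bar is the median of the list, and the number of genes called higher and lower of those measured stands at the right. Heat shock genes (21 of 25), AP-1 factors (9 of 11) and other immediate early genes (11 of 18) lie furthest to the right, and the 10 marker lists of other cell types or of sex chromosomes below the dotted line hold calls for Pecam1 and 3 Y-linked genes.

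Growth factors and their feedback regulators gave single calls. Hbegf, an EGF receptor ligand, read 345, 302 and 214 against 45.1, 42.5 and 42.3, a 6.45-fold difference (limma adjusted p = 2.6e-05), and the receptor's inhibitor Errfi1 read 1374, 1742 and 1170 against 701, 599 and 474 (1.27). These were 2 of 8 genes of the EGF list, whose median was -0.03. Of 16 MAP kinase phosphatases and Sprouty genes 3 were called higher, Dusp5 (2.57), Spry2 (0.98) and Dusp1 (0.92), and the median was 0.75. Sphk1, which makes sphingosine-1-phosphate, read 98.0, 63.8 and 29.5 against 3.98, 7.77 and 10.4 (2.96). The gap junction gene Gja1 (connexin 43) read 396, 449 and 652 against 169, 127 and 150 (1.72), and the other 3 connexins were not called. Rgs4, which shortens Gq signalling, read 166, 163 and 208 against 85.3, 101 and 66.5 (1.09), the single call among 10 RGS genes, which was lost without both replicates 3.

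Inflammatory genes were mixed. Of 18 cytokines and chemokines, Csf3 (2.49) and Clcf1 (1.50) were called higher and Csf1, the macrophage growth factor, lower at 102, 117 and 133 against 212, 183 and 226 (-0.82, limma adjusted p = 0.02). Csf3 was near the detection limit, with knockout values of 0.0725, 0.0675 and 0.404, of which the first pair correspond to 0 reads. Il6 and Ccl2 differed by 2.02 and 1.75 and were not called (limma adjusted p = 0.089 and 0.15). Of 17 NF-kB genes, Nfkbiz alone was called, at 93.8, 122 and 87.8 against 32.2, 32.4 and 30.8 (1.64). In the IL-6 and STAT3 list 2 of 13 were called, Socs3 at 25.4, 72.3 and 22.9 against 5.43, 4.8 and 4.61 (2.70) and Stat3 itself (0.72). The prostanoid enzymes Ptgs2 (COX-2) and Ptgis (prostacyclin synthase) were the 2 genes called of 25 vasoactive genes. Ptgs2 spread widely among controls, at 139, 255 and 726 against 70.2, 84.8 and 46.6 (2.17, limma adjusted p = 0.013), and its call was lost without replicate 3 of either group.

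Lists of growth, stress and metabolism held a few calls each, many of them near the threshold. In the Myc and ribosome biogenesis list 6 of 22 were called higher, with a median of 0.69, and 3 were called after quantile normalisation or without SM-Cn-/- replicate 2 or Cn-Ctl replicate 1 or 2. Myc read 48.6, 46.3 and 32.8 against 5.72, 2.77 and 6.54 (3.02), and Bop1, a ribosome assembly factor, differed by 1.49. Of 19 unfolded protein response genes 2 were called, Ppp1r15a (1.48) and Atf4 at 482, 476 and 348 against 182, 156 and 221 (1.22). Of 13 growth arrest genes 3 were called, Gadd45a (1.98), Cdkn1a (1.19) and Btg1 (0.97). Slc2a1 (1.00) and Hk2 (0.73) were the calls among 19 glycolysis genes, and Sod3, the extracellular superoxide dismutase, that among 16 redox genes, at 1008, 1037 and 744 against 436, 522 and 548 (0.88). Of 13 glucocorticoid-responsive genes Mt2 (1.23), Sgk1 (1.12) and Cebpd (0.96) were higher and Sult1a1 (-0.57) lower, while Fkbp5 and Tsc22d3 differed by -0.13 and -0.09 without a call. Nfil3 (2.46) and Rora (0.79) were higher and Per3 lower among 18 clock genes. After quantile normalisation 1 growth arrest gene was called, and 0 glucocorticoid-responsive, clock, redox and glycolysis genes were called higher. Without both replicates 3 the counts of genes called higher were 5 for MAP kinase phosphatases and Sprouty genes, 4 for the Myc list, 2 for Krüppel-like factors, 2 for growth arrest genes, 1 for the EGF list, 1 for vasoactive genes and 0 for RGS genes. In that setting 1 gene each of the NF-kB, IL-6 and vasoactive lists and 2 clock genes were called lower, and 0 glucocorticoid-responsive genes were. Over all 29 functional lists 127 of 507 measured genes were called, where 2.98% of all genes tested were. The lists were chosen with earlier results of these data known, so their share follows in part from that choice.

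Of the 88 genes lower in Cn-Ctl, the functional lists held Csf1, Sult1a1 and Per3. The others are described singly. Ppp1r1b (DARPP-32, a phosphatase inhibitor that calcineurin dephosphorylates in neurons) read 6.28, 3.86 and 5.28 against 23.0, 27.2 and 26.4 (-2.23, limma adjusted p = 0.0047), every control pool below every knockout pool, and it was called in every alternative setting. Syt15, a synaptotagmin, read 7.28, 8.27 and 10.9 against 32.8, 26.0 and 39.2 (-1.83, limma adjusted p = 1.9e-04). Fam107a, an actin-associated stress gene, read 41.8, 77.1 and 88.3 against 206, 273 and 169 (-1.68). In the knockout Fam107a rose by 2.36 from untreated aortas (limma adjusted p = 6.2e-04), against a difference of 0.88 in Cn-Ctl (limma adjusted p = 0.22), and the difference of these responses did not enter the 75 calls given below. Klhl38 read 0.0997, 2.29 and 2.22 against 9.93, 9.79 and 6.06 (-2.43), and the Ras exchange factor Rasgrf2 read 0.698, 4.49 and 5.13 against 15.7, 9.79 and 11.7 (-1.97). The clock gene Per3 read 22.8, 34.0 and 43.4 against 79.2, 93.4 and 70.2 (-1.30), where untreated means were 202 and 174. Lrrc75b, Ccdc14 and Dhtkd1 differed by -2.29, -2.03 and -2.00. Calls were lost in 8 settings for Lrrc75b, 7 for Ccdc14, 7 for Rasgrf2, 6 for Dhtkd1, 4 for Klhl38, 4 for Per3 and 1 for Fam107a, and in 0 for Syt15. Those of Sult1a1 and Csf1 were lost in 11 and 5 settings.

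Of the called genes 490 were protein-coding and 27 were of another biotype. Mirg, a noncoding RNA that hosts microRNAs in the imprinted Dlk1-Dio3 region (chromosome 12, 109729764 to 109749460), read 128, 82.3 and 22 against 8.77, 8.17 and 10.1 (2.71, limma adjusted p = 0.0026). Its neighbours in the region, singled out after their values were seen, were higher too. Rian (chromosome 12, 109603940 to 109661716) read 427, 384 and 243 against 120, 110 and 94.0 (1.66, limma adjusted p = 3.0e-05) and Meg3 (chromosome 12, 109541001 to 109571726) read 970, 762 and 424 against 201, 215 and 344 (1.46, limma adjusted p = 0.033). In all 3 the lowest control was replicate 3. Gm10501 and Gm8818 differed by 2.76 and 3.32, but they lie over Hspa1l and Lamc1 on the other strand, and since strand-specific counting was not given in the sources used here, reads of such pairs cannot be told apart. The same holds for Scx, a tendon factor at 11.5, 6.38 and 5.89 against 0.507, 0.0675 and 0.566 (3.25), which overlaps Bop1 on the other strand.

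Several measures other than genotype moved with the groups. The summed signal of 10 endothelial markers was 407 to 639 in Cn-Ctl and 790 to 971 in SM-Cn-/- without overlap, although Pecam1 was the single marker called (214, 336 and 379 against 620, 671 and 476, -0.95, limma adjusted p = 0.035). The Pecam1 call was lost in 5 alternative settings. The untreated endothelial sums were 411 to 518 and 646 to 885. At 6 h the endothelial sums overlapped (651 to 718 and 702 to 1479), and at 24 h they did not (569 to 609 and 1292 to 1349). In bulk aorta fewer cells of a type and less RNA per cell cannot be told apart. The sums of the macrophage (163 to 418 and 246 to 278), fibroblast (1823 to 2936 and 2122 to 2534), fat (1391 to 1502 and 1150 to 2143), blood (161 to 408 and 166 to 371), lymphocyte (40.3 to 82.1 and 62.5 to 103) and liver lists (207 to 1002 and 225 to 520) overlapped between groups, as did those of muscle (22.5 to 56.9 and 50.8 to 59.3) and nerve (237 to 268 and 265 to 269), and none of their genes was called, although 1 fibroblast gene was called higher without both replicates 3. Cd79a of B cells, Tnni2 of skeletal muscle and Mup2 of liver were below 1 in all 6 libraries. The summed contractile genes stood at 41665 to 55802 and 39083 to 48850. In untreated aortas they were higher in Cn-Ctl without overlap (45918 to 47059 and 33471 to 39012.5). The same held at 6 h (48101 to 53743 and 38476 to 44300) and 24 h (41359 to 69809 and 38495 to 41082). Untreated macrophage (102 to 143 and 198 to 342), lymphocyte (46.9 to 58.1 and 109 to 165) and muscle sums (25.8 to 37.2 and 55.7 to 115) were lower in Cn-Ctl without overlap. Those of fibroblasts, fat, blood, nerve and liver overlapped. The part of these cell types in the genes called was not tested.

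Genes of the Y chromosome were lower in Cn-Ctl. Kdm5d read 11.3, 21.2 and 20.1 against 43.7, 61.4 and 43.7 (-1.51), Uty read 22, 18.5 and 24.9 against 59.2, 71.8 and 47.3 (-1.41, limma adjusted p = 4.0e-04) and Eif2s3y read 130, 117 and 109 against 234, 236 and 181 (-0.86). Ddx3y differed by -0.34 and was not called at 2 h. At 6 h and at 24 h all 4 of these Y-linked genes were called lower in Cn-Ctl, where 0.419% and 1.9% of all genes were. All mice were male, and the Myh11-CreERT2 transgene is known to sit on the Y chromosome, so the knockout males carried a Y chromosome with the transgene, and its part in these values was not tested. Uty was also lower in untreated Cn-Ctl aortas, by 1.51 (limma adjusted p = 0.028), at 6 h by 2.06 and at 24 h by 2.21.

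In untreated aortas few genes passed the same test. Of 17402 genes 2 were called in untreated aortas (0.0115% of genes tested), Uty and P3h2, in a comparison of 2 against 3 pools, and 902 had an unadjusted p under 0.05. P3h2, a collagen prolyl 3-hydroxylase singled out after its values were seen (chromosome 16, 25959288 to 26105784, minus strand), read 66.8 and 61.4 in untreated Cn-Ctl and 20.8, 16.7 and 25.7 in untreated SM-Cn-/- (1.60, limma adjusted p = 0.011). At 2 h it read 101, 119 and 98.7 against 18.8, 20.5 and 25.5 (2.28), at 6 h it differed by 2.64 and at 24 h by 1.47.

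The difference at 2 h was then set against the untreated difference in an interaction test. It was larger in 71 genes (0.408% of genes tested) and smaller, or more negative, in 4 (0.023%), together 0.431%. Of these 75 genes 70 were also called at 2 h, 68 higher and 2 lower. Heat shock genes gave 14 of them, AP-1 factors 4, other immediate early genes 4, and matricellular genes 4. The largest was Fosb, at 4.70, from a 2 h difference of 4.53 and an untreated difference of -0.17, followed by Myc (4.27), Hspa1b (4.16), Arc (3.94) and Tnfaip6 (3.86). The responses to Ang-II within each genotype share the 2 h libraries with the comparison above and are given as values. Mice operated without a pump are named as controls in the methods, but the timing of that surgery for the untreated pools is not given. The part of surgery and anaesthesia in these responses was not tested. In Cn-Ctl 882 genes responded at 2 h (5.07% of genes tested), 680 rising (3.91%), and in SM-Cn-/- 170 (0.977%), 146 rising and 24 falling (0.138%). Errfi1 rose by 4.49 in Cn-Ctl and by 2.48 in SM-Cn-/-, Ctgf by 3.66 and 2.10 and Adamts1 by 2.62 and 1.53, all 6 responses called. Bag3 rose by 2.63 in Cn-Ctl and differed by 0.60 in SM-Cn-/- without a call, Jun by 2.27 and 0.20, and Cd44 by 2.24 and 0.07.

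**Figure D4:**
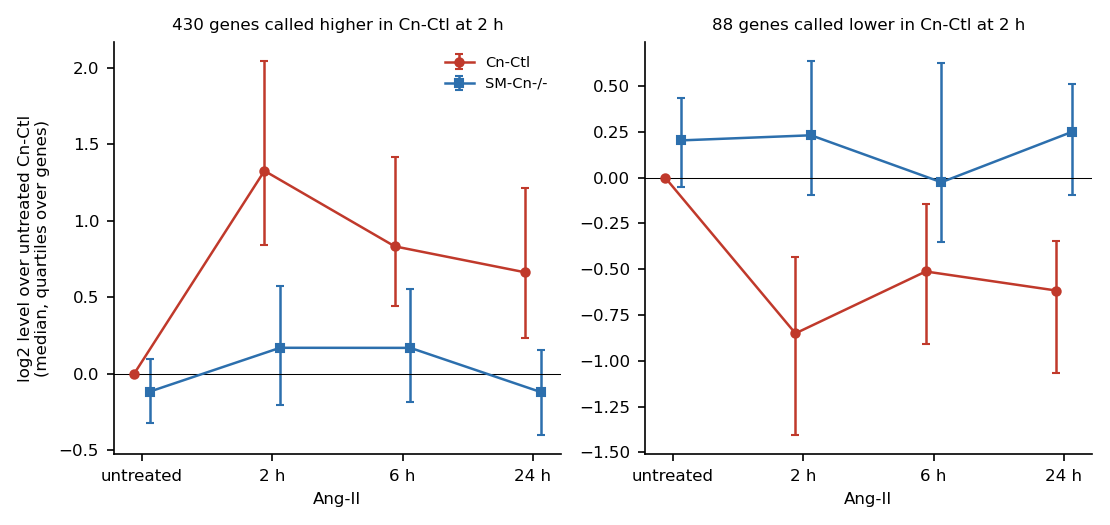
Median (points) and quartiles (bars) over genes of the log2 level relative to untreated Cn-Ctl, by hours of Ang-II, for the 430 genes higher (left) and the 88 genes lower (right) in Cn-Ctl at 2 h. The genes were chosen at 2 h. On the left the Cn-Ctl median is 1.33 at 2 h and 0.66 at 24 h while those of SM-Cn-/- lie between -0.12 and 0.17, and on the right those of Cn-Ctl lie between -0.85 and -0.51.

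Later times came from other mice. At 6 h 269 genes were called (1.55% of genes tested) and at 24 h 711 (4.09%). The 430 genes higher in Cn-Ctl at 2 h had a median difference of 0.65 at 6 h, with 125 called again (29.1%), and of 0.79 at 24 h, with 186 called again (43.3%). Over all genes, 1.13% were called higher at 6 h and 2.18% at 24 h. The 88 lower genes had medians of -0.64 and -0.92, with 22 and 37 called again, where 0.419% and 1.9% of all genes were called lower. None of the 518 was called in the opposite direction at 6 h or 24 h. In untreated aortas the medians were 0.12 and -0.20. Without regard to a call, the difference of the 430 genes was above 0 for 64.4% in untreated aortas, 96.0% at 6 h and 92.3% at 24 h, where 49.4%, 49.4% and 45.6% of all genes were.

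The medians of the lists differed by time. The heat shock median was 1.64 at 2 h, 0.76 at 6 h (8 of 25 called) and 0.56 at 24 h (9 called), and the AP-1 median was 1.87, 0.57 (5 of 11) and 0.46 (3). The fibrinolysis median was 0.29, 0.40 and 1.24, and that of hyaluronan, ADAMTS and matricellular genes 1.00, 0.52 and 1.13. Tested directly, the 2 h difference exceeded that at 6 h in 1 gene (0.00575% of genes tested), Bag3, by 1.67 (limma adjusted p = 0.042). It exceeded that at 24 h in 4 genes (0.023%) of the 5 called (0.0287%), Dnajb1 by 2.91, Dnaja4 by 2.58, Bag3 by 1.96 and Jun by 1.94, and was smaller for the pseudogene Mrpl23-ps1 (-4.04). Fosb differed by 4.57 at 6 h and 3.00 at 24 h, and Rcan1 by 2.39 and 1.80, each of them called at both times.

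**Figure D5:**
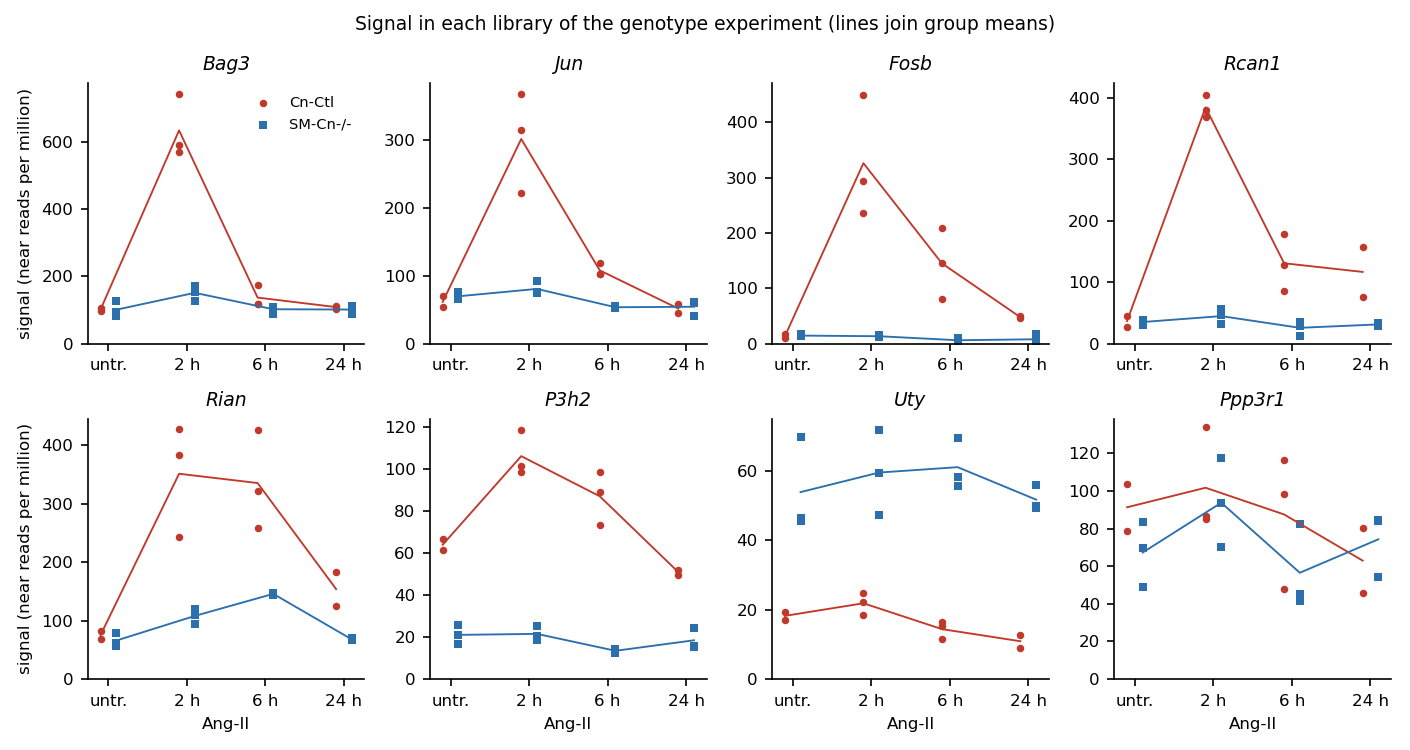
Signal by hours of Ang-II for Bag3, Jun, Fosb, Rcan1, Rian, P3h2, Uty and Ppp3r1, with a point for each library and lines through the group means. Bag3 and Jun separate the genotypes at 2 h and differ by 0.11 and -0.06 at 24 h, Fosb and Rcan1 stay apart from 2 h on, and P3h2 and Uty are apart at every time.

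The second experiment compared other mice, wild-type with or without CsA, in a table normalised separately. At 2 h of Ang-II 208 of 15399 genes were called between WT and CsA (1.35% of genes tested). The 430 genes had a median WT minus CsA difference of 0.36, and 50 of the 429 measured were called higher (11.7%), against 0.981% of all genes, while 92.5% were above 0 at any size, against 48.8% of all genes. The 88 had a median of -0.18 with 3 called lower, against 0.37% of all genes. Counts by list follow. Other immediate early genes had a median of 0.94 with 7 of 18 called, and AP-1 factors 0.93 with 3 of 11, whereas heat shock genes had 0.32 with 0 of 25 called, and in the knockout comparison 21 of 25 were. The difference between these experiments was not tested. The WT and CsA mice received no tamoxifen, and CsA was given by minipump for 5 days before Ang-II. Treated mice of both groups entered at a systolic pressure above 130 mmHg, a criterion that SM-Cn-/- mice did not have to meet. Their libraries at 2 h were deeper too, with 18976266 to 25893404 assigned reads against 5801216 to 7449677 in the knockout comparison. By gene, WT minus CsA was 2.05 for Fosb, 2.71 for Fos, 2.01 for Egr1, 1.28 for Nr4a3, 1.2 for Rcan1 and 1.08 for P3h2, all called. It was 0.99 for Hspa1b, 0.96 for Dnajb1, 0.60 for Bag3 and 0.15 for Rian, none of them called.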

How the data were processed

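Aortic RNA pools were read as oligo-dT cDNA on a Genome Analyzer. Per the sources, the authors aligned reads with Bowtie 0.12.7 and estimated gene counts with RSEM 1.16; the scaling tool and genome build are not given in the sources used here. The deposited values are normalised signal. Each equals the reads plus 0.5 over a scaled library size, and 100% of values in the libraries used returned whole reads (tolerance 0.02). A deposited value thus carries counting error, and depth was 5801216 to 7449677 assigned reads in the 6 libraries at 2 h. The untreated and the 24 h Cn-Ctl groups have values for 2 pools each, and all of these were used. The authors discarded 1 untreated Cn-Ctl pool because it lay far from the others in a principal component analysis. The untreated spread therefore excludes that pool. For the 24 h group no reason is given in the sources used here.

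Log2(signal + 0.5) was fitted with limma 3.58.1 (trend, R 4.3.3) on the 22 libraries and 8 groups of the genotype experiment, without covariates, over all 17402 listed genes. The CsA experiment (18 libraries) was fitted separately. Alternatives were another pseudocount, a filter on low values, quantile and median-ratio scaling, the 2 groups alone, a replicate block, protein-coding genes alone, edgeR 4.0.16 and DESeq2 1.42.0 on recovered reads, and each library left out. Positions and biotypes came from GENCODE M21 (GRCm38), promoter windows from RefSeq. Genes named were calcineurin subunits, Rcan1, up to 15 protein-coding genes a direction with the largest differences among called genes without overlap (mean signal of 5 or more in the higher group), 5 of another biotype, and, by list, those called and up to 4 others by p. Some genes that the rule or a list holds are not reported here, though counts over lists and over all genes include them. The groups and lists were chosen with earlier results of these data known.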

Additional observations from a re-analysis of the deposited data

Results flagged for a closer look

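The genotype difference at 2 h of Ang-II departed from that in untreated aortas in 39 of the genes that the naming rule took, by the interaction test of the same limma model (adjusted p under 0.05). Over all genes tested 75 were called by it (0.431%). The rule took genes largely by their 2 h values, which share libraries with the interaction, so the count of 39 follows in part from that choice. Each value here is the log2 difference at 2 h minus the untreated log2 difference, both Cn-Ctl minus SM-Cn-/-, from 3 against 3 pools at 2 h and 2 against 3 untreated.

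Among chaperones the values were Hspa1b 4.16, Hspa1a 3.71, Dnajb1 3.73, Hspb1 2.49, Hsph1 2.47, Cryab 2.21, Bag3 2.03, Hspa4l 1.93, Dnaja1 1.90, Hspa8 1.87, Hspe1 1.84, Hsp90aa1 1.81, Hspd1 1.69 and Ahsa2 1.56. Each of these 14 differences was positive, and the pools at 2 h did not overlap. The genes entered by their call at 2 h, which shares its libraries with the interaction, so both traits follow in part from that choice.

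Among immediate early factors and their relatives the values were Fosb 4.70, Fos 3.54, Atf3 3.20, Jun 2.06, Arc 3.94, Nr4a3 2.82, Ier5 2.63, Nr4a1 2.13, Myc 4.27, Klf4 1.94 and Klf6 1.31. In the matrix, fibrinolysis and TGF-beta groups they were Tnfaip6 3.86, Thbs1 2.78, Cyr61 2.24, Cd44 2.16, Plau 2.76, Anxa2 1.12 and Tgfb2 1.73. For genes of the muscle cytoskeleton and of gap junctions they were Flnc 3.25, Xirp1 2.36 and Gja1 1.61, and for signalling regulators Rcan1 3.10, Sphk1 3.03 and Socs3 3.36.

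In the other direction Syt15 gave -1.91. It had untreated means of 56.0 and 52.8 and a 2 h difference of -1.83.

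Dnaja4 and Rian, which were singled out after their values were seen, departed as well, by 2.80 (limma adjusted p = 3.6e-05) and 1.46 (limma adjusted p = 0.029).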

How the results depend on the processing

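Each of the 518 genes kept the sign of its difference at 2 h in every setting that tested it (28 were outside the fit of protein-coding genes alone), and of 152 named genes called, 68 were called in all settings. The count was 311 (222 higher) after quantile normalisation, 840 with DESeq2 on recovered reads (208 lower), and 323 (265 and 58) for differences of more than 2-fold. Leaving out 1 library gave 256 to 590 calls, 235 to 486 higher and 21 to 104 lower, and moved the count by over 1.5 times for SM-Cn-/- replicate 1 (315) and 2 (256) and Cn-Ctl replicate 1 (268) and 2 (280). edgeR on recovered reads called 513, 488 of them shared with limma. The interaction with untreated aortas gave 27 genes after quantile normalisation, 188 with DESeq2 and 11 to 81 with 1 library left out. Untreated aortas gave 1 gene with the replicate block, 28 with DESeq2 and 0 to 3 with 1 library left out; at 6 h the counts were 504 with DESeq2 and 96 to 480, at 24 h 159 to 1002, and for WT against CsA 80 with the replicate block and 18 to 390. The cause of these shifts was not tested. Replicate numbers did not pair the libraries at 2 h, since same-numbered libraries correlated at -0.237, -0.0945 and -0.41 in their deviations from the group means over 11257 genes, and with the replicate block 589 genes were called, 512 of them shared. The depth limits genes of few reads, and 3 pools a group limit the precision of all differences.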

Other observations

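The promoter windows of all called genes were searched for the same motifs, as a description without a test. Of the 430 genes higher in Cn-Ctl, 317 had a RefSeq window, 435 windows in all. The EGR motif stood in 9.20% of them and in 3.47% of all 32851 windows, the CRE in 4.6% and 1.79%, CArG in 3.45% and 1.63%, AP-1 in 6.67% and 5.20% and the heat shock element in 10.3% and 7.86%. The NFAT motif stood in 18.6% and 21.4%, and SMAD in 18.2% and 21%. The 73 windows of genes lower in Cn-Ctl held EGR in 5.48%, the CRE in 2.74%, the heat shock element in 4.11% and AP-1 in 1.37%. They held CArG in 0%, NFAT in 21.9%, SMAD in 19.2% and NF-kB in 6.85%. The NF-kB motif stood in 5.06% of the windows of genes higher in Cn-Ctl and in 4.51% of all windows. All windows include those of genes that were not tested, and these were not set apart. Genes with several starts count once for each window. Of the other genes with the largest differences, the windows of Dnajb1, Atf3 and Crybb3 held none of these letters.

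Sex chromosomes held 15 calls on X, 10 higher and 5 lower in Cn-Ctl, and 3 on Y, all lower. Over all genes 2.47% were called higher and 0.506% lower. The genes tested on X and Y were not counted here, so these calls were not set against that share. Crybb3, a crystallin, read 12.3, 11 and 6.20 in Cn-Ctl and 0.652, 0.878 and 0.727 in SM-Cn-/- at 2 h.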
